A study of Mus musculus with 19 samples.

Results

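The EphB receptors and their membrane-bound ligands, the ephrin-Bs, were followed through 3 comparisons of mouse retina RNA-seq in which the transcription factor gene Pou3f1 was added or removed. The members are the 8 genes Ephb1, Ephb2, Ephb3, Ephb4, Ephb6, Efnb1, Efnb2 and Efnb3, found by gene symbol. All 8 were listed with an adjusted p-value in each table, among 22294 listed genes in the 48 h table, 23635 in the 14 day table and 35734 in the E17.5 table.

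In the overexpression experiment, eyes of wild-type CD1 pups were electroporated on postnatal day 1 with plasmid DNA. GFP-positive retinal cells were sorted by FACS 48 h later (3 Gfp control libraries and 3 Pou3f1 libraries) or at 14 days (4 Gfp and 5 Pou3f1 libraries), and sorts were combined to 150000 cells per replicate, so each replicate is a pool. The loss-of-function experiment used whole embryonic retinas (C57B6J strain, E17.5), with 2 libraries heterozygous for Pou3f1 and 2 homozygous knockout libraries. The E17.5 controls therefore also carry a mutant Pou3f1 allele, and neither the plasmid promoter nor the design of the mutant allele is stated in the sources read. The labels name no separate animals, so the spread behind the p-values is that between these samples and may be technical.

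EphB receptors are receptor tyrosine kinases that bind ephrin-B proteins on neighbouring cells. The receptor signals into its own cell (forward signalling), and the ephrin-B, which has a cytoplasmic tail, signals into its own (reverse signalling). At the optic chiasm, ephrin-B2 on midline glia repels ganglion cell axons that carry EphB1, which turns them to the same side of the brain, while axons with little EphB1 cross to the opposite side. The series concerns Pou3f1 in the crossing, or contralateral, projection. In whole retina or sorted retinal cells these genes are also expressed outside ganglion cells, in progenitors, glia and vessels.

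Each table gives the authors' comparison and no value per library, so single libraries and their overlap between groups cannot be shown and the depth per library is unknown. Mean normalized counts summed to 16020842 at 48 h and 38507471 at 14 days. No table says which group is the numerator, so the sign of Pou3f1 set the direction in which each was read and does not check the labels. The E17.5 table's name puts the heterozygote before the knockout, and if its fold changes were heterozygote over knockout, every E17.5 direction given here would turn. For Pou3f1, the authors' deposited table gives a log2 fold change of 0.91 ± 0.26 (SE) at 48 h and 5.57 ± 0.27 at 14 days in Pou3f1 cells, and -0.69 in the knockout (adjusted p = 0.0233, 3.4e-88 and 1.98e-08). At 48 h and at 14 days the SE of Pou3f1 was above that of 99.0% of the 500 tested genes nearest in mean count. Markers of the ganglion cell (10 of 10), amacrine cell (8 of 8), horizontal cell (5 of 5) and retinal progenitor (8 of 8) lists were listed in all 3 tables. Of 8 rod markers, 2 were listed at 48 h, and 8 in each of the other tables. The bipolar cell (4 of 8), Müller glia (6 of 8), cone (6 of 8) and pigment epithelium (5 of 6) lists were also incomplete at 48 h.

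The upstream sequences of the genes whose response is described most closely below are given first, because Pou3f1 belongs to the POU factors, which bind the octamer motif. RefSeq promoter windows (build GRCm38.p6) were matched by symbol for 7 members, that is all but Efnb3. Shown are the 250 bases before the transcription start, 5′ to 3′ on the gene's strand, with CCAAT or its reverse complement ATTGG in capitals. The windows are chr9:102354694-102354943 (minus strand) for Ephb1, chr4:136836013-136836262 (minus) for Ephb2, chr16:21204545-21204754 (plus) for Ephb3, where the last 40 bases of the window are left out because GENCODE places them inside the gene, and chr8:8661243-8661492 (minus) for Efnb2.
Ephb1: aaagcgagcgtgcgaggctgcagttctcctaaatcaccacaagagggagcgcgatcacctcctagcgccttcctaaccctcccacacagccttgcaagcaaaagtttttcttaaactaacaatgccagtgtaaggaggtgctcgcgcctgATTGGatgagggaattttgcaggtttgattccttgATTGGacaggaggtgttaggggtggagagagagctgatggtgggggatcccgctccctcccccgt
Ephb2: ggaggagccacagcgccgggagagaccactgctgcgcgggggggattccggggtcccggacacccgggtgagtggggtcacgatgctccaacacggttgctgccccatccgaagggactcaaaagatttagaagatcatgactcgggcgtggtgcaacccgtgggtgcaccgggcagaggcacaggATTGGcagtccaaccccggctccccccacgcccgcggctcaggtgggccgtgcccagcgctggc
Ephb3: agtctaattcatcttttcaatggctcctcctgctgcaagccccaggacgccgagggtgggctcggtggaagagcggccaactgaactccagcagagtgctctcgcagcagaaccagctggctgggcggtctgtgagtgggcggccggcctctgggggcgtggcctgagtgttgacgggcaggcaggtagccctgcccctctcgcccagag
Efnb2: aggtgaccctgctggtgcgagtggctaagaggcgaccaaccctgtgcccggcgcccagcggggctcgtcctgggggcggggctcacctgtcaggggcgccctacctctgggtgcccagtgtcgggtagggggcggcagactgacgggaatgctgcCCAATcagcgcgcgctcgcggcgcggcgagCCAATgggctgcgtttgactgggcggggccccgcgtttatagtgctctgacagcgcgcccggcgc

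The octamer ATGCAAAT, searched on both strands, was found in 0 of these 7 windows and in 1.60% of all 32851 windows of that length, some of which belong to the same gene. With 7 of 8 letters required, the counts were 0 of 7 and 16.6%. At such shares 7 windows are too few to show whether the members lack the motif more often than other genes. ATTA, a core of homeodomain sites, was present in Ephb3 and Ephb4, 2 of 7 members, against 54.9% of windows. The share of G and C bases was 54.0% to 76.8% in the member windows, against a median of 52.4% over all windows. No motif comparison given here, that of CCAAT included, was matched for it, and ATTA and the octamer are both rich in A and T. CCAAT was present in 5 of 7 members and in 33.8% of all windows, and it overlaps none of the ATTA matches. Ephb1 and Efnb2 have 2 CCAAT matches each, which 10.1% of windows reach, beginning 100 and 65 bases before the start in Ephb1 and 95 and 65 bases before it in Efnb2. The Ephb3 and Ephb6 windows hold none. CCAAT was searched after the sequences had been seen, and letter matches describe these windows only.

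The genes lie on 8 chromosomes (GENCODE release 21, build GRCm38). Ephb1 spans 433 kb at chr9:101922128-102354693, and Ephb2 188 kb at chr4:136647539-136835988. Ephb3 spans 18.6 kb at chr16:21204755-21223305, Ephb4 28.6 kb at chr5:137350109-137378669 and Ephb6 15.0 kb at chr6:41605482-41620509. Among the ligands, Efnb1 is at chrX:99136130-99148991, Efnb2 at chr8:8617434-8661242 and Efnb3, the shortest at 6.11 kb, at chr11:69554092-69560205. Other annotated genes overlap 3 members, and whether counting used strand is not given. Of 9 such genes within or beside Ephb1 only 9630041A04Rik, which shares 21101 bases on the opposite strand, is listed at 48 h and at 14 days, at mean counts of 1.56 and 0.337. The 3 genes inside Efnb2, on its own strand, have a fold change in no table. The last 33 bases of Ephb4 overlap Zan on the opposite strand. Zan, unlike Ephb4, fell at 14 days in the authors' deposited table (-0.85, adjusted p = 0.000752).

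At 48 h Efnb2, Efnb1 and Ephb2 were the most abundant members per unit of length. Per kilobase of the longest transcript, the authors' mean normalized count over all libraries of the comparison was 594 for Efnb2, 398 for Efnb1, 374 for Ephb2, 255 for Ephb1 and 223 for Efnb3. Ephb3 followed at 171, Ephb6 at 113 and Ephb4, the vessel-associated receptor that binds ephrin-B2, was lowest at 83.6. On that scale Efnb2 exceeded 91.1% of the 22218 listed genes with a length, Ephb1 78.0% and Ephb4 58.7%. These means carry no spread, so whether neighbours in the order differ beyond it cannot be said.

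At 14 days the levels of the members lay closer together. Per kilobase, Efnb2 had a mean normalized count of 258, Efnb1 213, Ephb2 190, Ephb6 159, Efnb3 152, Ephb3 130, Ephb1 127 and Ephb4 61.4. Ephb1 went from the fourth place of the 8 to the seventh and Ephb6 from the seventh to the fourth, in tables that were normalized separately. Dividing by the mean length of a gene's transcripts instead put Ephb2, whose longest transcript has 10902 bases, first at both ages with 1050 and 534 per kilobase. On that scale Ephb1 had 438 and 219 and Ephb6 304 and 426 at 48 h and 14 days. The places of Ephb1 and Ephb6 in the order thus depend on the length used.

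**Figure D1:**
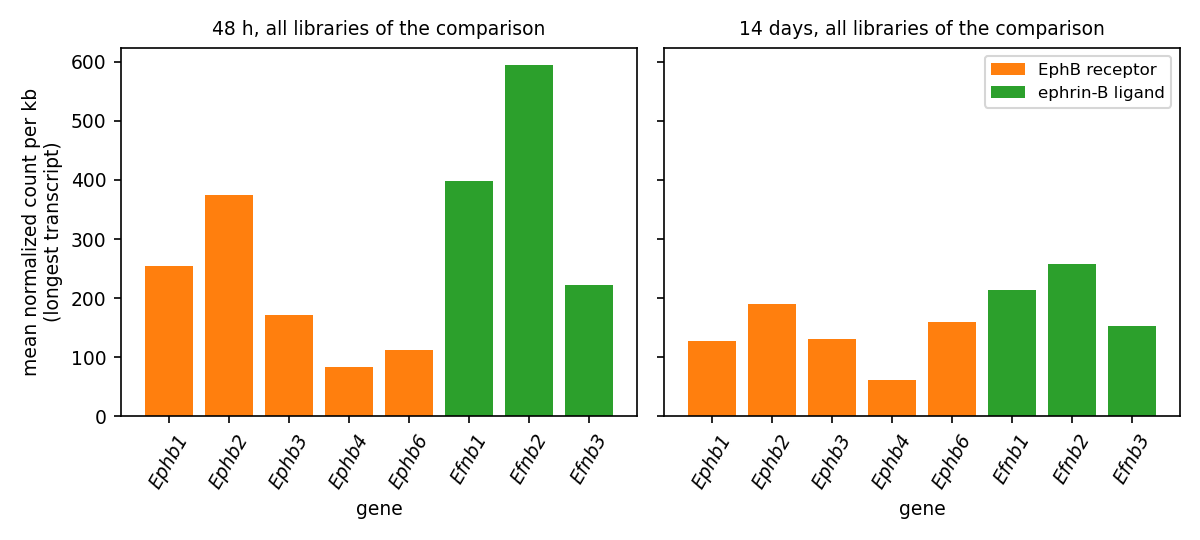
Bars show the authors' mean normalized count per kilobase of the longest transcript (vertical axis) for each gene, over all libraries of the 48 h comparison (left) and the 14 day comparison (right), with no error because none is listed. Efnb2 was highest and Ephb4 lowest in both panels, which were normalized separately.

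At 48 h the question is which genes answer early to Pou3f1 in newborn retinal cells. Ephb1, the receptor of the uncrossed axons, had a lower level with Pou3f1 than with Gfp alone and was the only member to pass the test. Of 8 members, 0 rose and 1 fell, while of all 14714 tested genes 1.48% rose and 1.56% fell. Ephb1 had a log2 fold change of -0.83 ± 0.16 at a mean count of 1188 (adjusted p = 5.59e-05 in the authors' deposited table). On the linear scale this is 0.562 of the Gfp level, with a 95% interval of 0.452 to 0.698. Only 91 of the 14714 tested genes had a lower fold change. The cells were sorted by GFP and not by cell type, and 10 ganglion cell markers had a summed mean count of 1692. Which cell type carried the fall is therefore not shown.

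The other receptors were lower or near 0 at 48 h without passing the test. Ephb2, which guides ganglion cell axons within the retina and in maps of the tectum, had -0.48 ± 0.17 (unadjusted p = 0.00343, adjusted p = 0.0852) in the authors' deposited table. Its 95% interval ran from -0.81 to -0.16, and at its SE a change of 0.53 was the smallest that would have been called. For Ephb3, which acts together with Ephb2 in several axon tracts, the authors' deposited table gives -0.32 ± 0.18 (adjusted p = 0.413). Ephb6, a receptor without kinase activity, and Ephb4 had -0.12 ± 0.20 and 0.10 ± 0.21 (adjusted p = 0.868 and 0.896 in the authors' deposited table). Their intervals, -0.51 to 0.28 and -0.31 to 0.50, leave room for changes of that size in either direction.

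No ligand passed at 48 h. Efnb1, the X-linked ephrin-B, had -0.26 ± 0.17, Efnb2, the midline ligand of EphB1, -0.15 ± 0.14 and Efnb3, known from the spinal cord midline, 0.11 ± 0.19 (adjusted p = 0.508, 0.685 and 0.870 in the authors' deposited table). The Efnb2 interval, -0.42 to 0.12, was the narrowest of the 8 members. Over all 8 members the median log2 fold change was -0.21, against -0.01 over all tested genes, and 6 of 8 were below 0, as were 50.9% of tested genes.

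Single markers of other cell types were called beside Ephb1 at 48 h, at most 1 per list. Of all tested genes 1.48% rose and 1.56% fell. A single call does not show that a cell type changed, and the part of these markers in the fall of Ephb1 was not tested. Of 7 vessel markers tested, 0 rose and 1 fell, namely Kdr (-0.63 ± 0.15, adjusted p = 0.00298 in the authors' deposited table). Of 10 ganglion cell markers, 0 rose and 1 fell, namely Atoh7 (-0.89 ± 0.25, adjusted p = 0.0160 in the authors' deposited table), which starts the ganglion cell fate. Of 6 cone markers 1 fell, and of 3 pigment epithelium markers 1 rose. The summed mean count of the first lists was 12091 for vessels, of which Kdr alone had 11683, and 1692 for ganglion cells, of which Atoh7 had 577. The other 9 vessel markers had mean counts from 1.31 (Sox17) to 158 (Cldn5). Fewer cells of a type and less RNA per cell cannot be told apart in these bulk samples.

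The 14 day comparison asks what the same plasmid does once the retina has formed. Both receptor and ligand genes were higher in Pou3f1 cells: Ephb2 and Ephb6 among the receptors, and Efnb2 and Efnb3 among the ligands. Of 8 members, 4 rose and 0 fell, while of all 17789 tested genes 11.5% rose and 9.21% fell. All 8 log2 fold changes were above 0, with a median of 0.38 against -0.01 over all tested genes, of which 52.2% were below 0.

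Ephb2 rose by 0.60 ± 0.14 at a mean count of 2076 (adjusted p = 0.000398 in the authors' deposited table), a level 1.52 times that of Gfp cells with a 95% interval of 1.25 to 1.83. Ephb6 rose by 0.52 ± 0.14 at a mean count of 597 (adjusted p = 0.00271 in the authors' deposited table), or 1.43-fold (1.19 to 1.73). The kinase-active and the kinase-inactive receptor thus had overlapping intervals. Ephb1 did not pass: the authors' deposited table gives 0.24 ± 0.23 at a mean count of 595 (adjusted p = 0.506). Its interval, -0.21 to 0.69, includes the values of Ephb2 and Ephb6. The SE of Ephb1 was above that of 96.0% of the 500 tested genes nearest in mean count, whose median was 0.13. Ephb3 (0.23 ± 0.17) and Ephb4 (0.12 ± 0.26) did not pass either (adjusted p = 0.346 and 0.799 in the authors' deposited table).

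Among the ligands, Efnb3 rose by 0.62 ± 0.17 at a mean count of 484 (adjusted p = 0.00246 in the authors' deposited table), or 1.54-fold (1.23 to 1.93). Efnb2 rose by 0.60 ± 0.19 at a mean count of 1237 (adjusted p = 0.0127 in the authors' deposited table), or 1.51-fold (1.17 to 1.96). Its SE, like that of Ephb1, was high for its level, above 95.6% of the 500 genes nearest in mean count. Efnb1 was given as 0.18 ± 0.14 (adjusted p = 0.383 in the authors' deposited table), with an interval of -0.09 to 0.45. The 4 called members all lay between 0.52 and 0.62, and 0 of them reached a 2-fold change.

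Cell type markers also moved at 14 days, and their part in the rise of the 4 genes was not tested. Of 8 microglia markers 8 rose and 0 fell, with a median of 1.54 and a summed mean count of 2052. Of 8 amacrine markers 2 rose, of 10 ganglion cell markers 2 rose, and of 8 progenitor markers 4 rose, with 0 falling in each list. Bipolar cell markers (2 of 8 rose and 1 fell) and astrocyte markers (1 of 4 rose) also moved. Isl1 is on both the ganglion cell and the bipolar cell list and counts as a rise in each. It had 0.46 ± 0.18 (adjusted p = 0.0491 in the authors' deposited table). Rod markers (6 of 8), cone markers (6 of 8), Müller glia markers (5 of 8) and vessel markers (3 of 10) fell, with 0 rising. The ganglion cell factor Pou4f2 alone had 3.64 ± 0.26 (adjusted p = 7.86e-40 in the authors' deposited table), while the median of its list was -0.19.

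**Figure D2:**
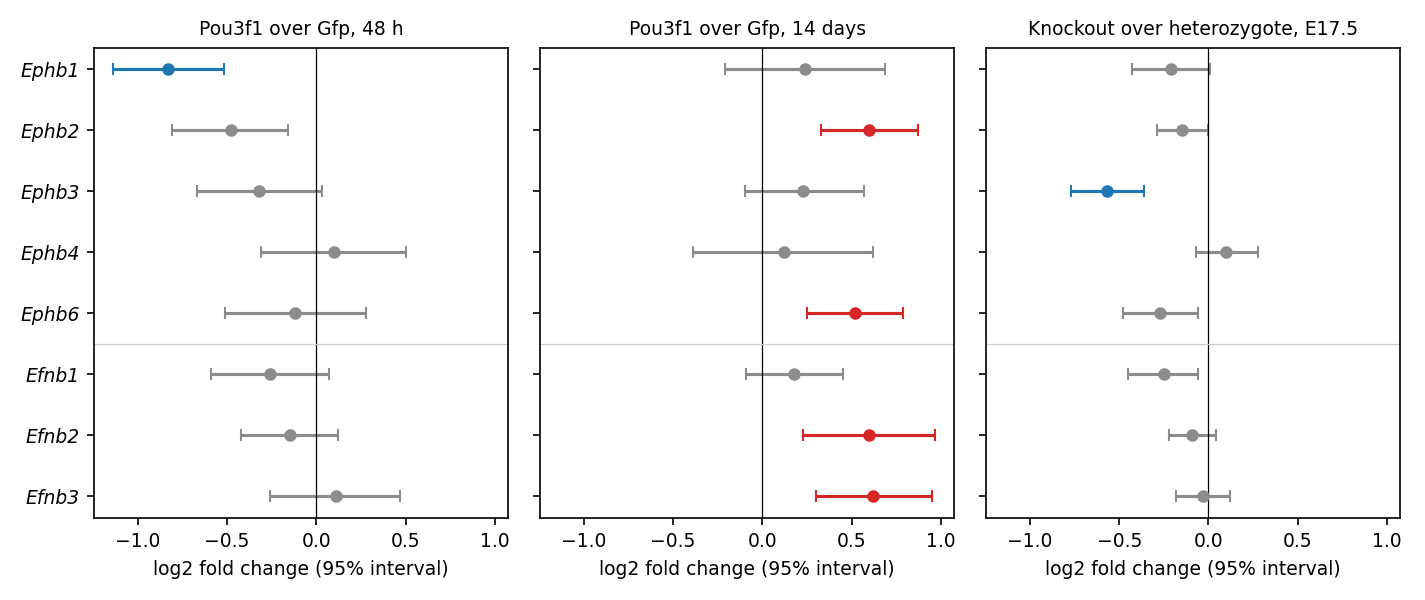
Points show the log2 fold change of each gene (horizontal axis) with its 95% interval in the 3 comparisons, red where it rose, blue where it fell and grey where it did not pass. Intervals use the listed SE at 48 h and 14 days and, at E17.5, the SE implied by the p-value. Ephb1 fell at 48 h, 4 genes rose at 14 days and Ephb3 fell at E17.5.

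The tables of 48 h and 14 days share no libraries, so their fold changes were compared for each gene with a z test (two-sided) of their difference, using both SE, and adjusted by Benjamini-Hochberg over 14580 genes. All 8 members had a higher fold change at 14 days than at 48 h, as did 7744 of the 14580 genes. For 3 members the difference passed. Of all genes 4.48% passed as higher and 1.66% as lower at 14 days. The median difference was 0.59 over the members and 0.03 over all genes.

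Ephb2 differed by 1.08 ± 0.22 on the log2 scale (adjusted p = 6.82e-05) and Ephb1 by 1.07 ± 0.28 (adjusted p = 0.00568). The differences of these receptors were alike in size. Their positions were not, since Ephb1 went from below 0 to an interval that spans 0, and Ephb2 from a value below 0 that did not pass to a called rise. Efnb2, the ligand, differed by 0.75 ± 0.23 (adjusted p = 0.0289).

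The differences of the other members missed the threshold. Ephb6 had 0.63 ± 0.25 (adjusted p = 0.103), Ephb3 0.55 ± 0.25 (adjusted p = 0.176), Efnb3 0.52 ± 0.25 (adjusted p = 0.228) and Efnb1 0.44 ± 0.22 (adjusted p = 0.246). For Ephb4 the difference was 0.02, with a 95% interval of -0.63 to 0.67. The listed fold change of Pou3f1 itself differed by 4.67 ± 0.38. Its mean counts over both groups were 37279 at 48 h and 16972 at 14 days, in tables that were normalized separately. How much Pou3f1 was added at each time therefore cannot be read from its fold changes. Fold changes shrunken toward 0 in separate fits enter all these differences.

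**Figure D3:**
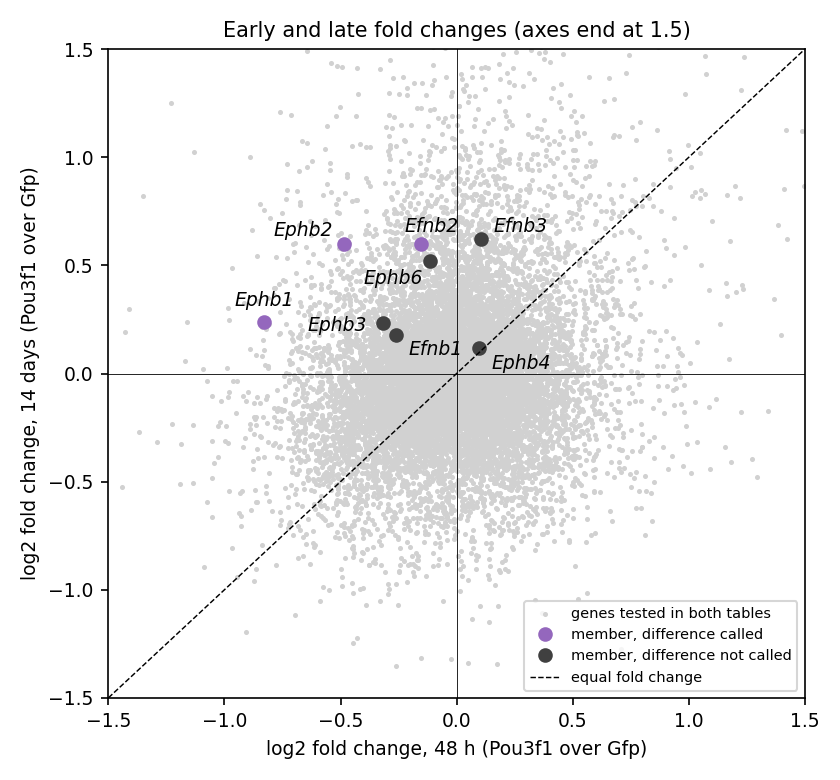
Each grey point is 1 of 14580 genes, with the log2 fold change of Pou3f1 over Gfp cells at 48 h (horizontal) and 14 days (vertical), on axes that end at 1.5 in each direction. Named points are the 8 members, purple where the difference passed (Ephb1, Ephb2, Efnb2), and all 8 lie above the dashed line of equal fold change.

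The knockout comparison asks which genes depend on Pou3f1 in the embryonic retina. Ephb3 was lower in the knockout than in the heterozygote and was the only member to pass. Of 8 members, 0 rose and 1 fell, while of all 14821 tested genes 4.70% rose and 5.34% fell, so a single call is close to what the table as a whole shows. For Ephb3 the authors' deposited table gives a log2 fold change of -0.57 (adjusted p = 3.82e-06). With the SE of 0.10 that its p-value implies, the knockout level was 0.675 of the heterozygote (95% interval 0.585 to 0.777). That gene did not pass in either overexpression table.

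Ephb1 was given as -0.21 in the knockout (unadjusted p = 0.0632, adjusted p = 0.273 in the authors' deposited table), with an implied interval of -0.43 to 0.01. Its 48 h and knockout values were thus both below 0, and only the first passed the test. Ephb6 (-0.27), Ephb2 (-0.15) and Efnb1 (-0.25) had unadjusted p-values of 0.0130, 0.0472 and 0.0114 in the authors' deposited table, and adjusted p-values of 0.0973, 0.228 and 0.0888. Efnb2 (-0.09), Efnb3 (-0.03) and Ephb4 (0.10) had adjusted p-values of 0.493, 0.897 and 0.580 in the authors' deposited table. For Efnb2 the implied interval was -0.22 to 0.04 and for Efnb3 -0.18 to 0.12. Their 14 day rises came from sorted cells of another age, with a larger listed change of Pou3f1. The sizes in the knockout and at 14 days therefore cannot be set against each other. The median over the members was -0.18, against 0.00 over all tested genes, and 7 of 8 were below 0, as were 49.2% of tested genes.

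Amacrine cell markers fell beside Ephb3 in the knockout, and their part in its fall was not tested. Of 8 such markers 0 rose and 7 fell, with a median of -0.90, led by the transcription factor genes Tfap2a (-1.18) and Tfap2b (-1.01) (adjusted p = 3.03e-33 and 4.11e-29 in the authors' deposited table). Of 10 ganglion cell markers 2 rose and 0 fell, of 5 horizontal cell markers 0 rose and 2 fell, and of 9 vessel markers 0 rose and 2 fell. Of 8 progenitor and of 7 Müller glia markers 1 rose and 2 fell each, and of 4 astrocyte markers 2 fell. The E17.5 table lists no abundance.

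The EphA branch, whose receptors bind the ephrin-As and which maps axons along the other axis of visual targets, is given for comparison from the same tables. At 48 h, 0 of 9 EphA receptors rose and 1 fell, namely Epha8 (-0.58 ± 0.16, adjusted p = 0.0201 in the authors' deposited table). At 14 days 5 of 9 EphA receptors rose and 0 fell, and 4 of 5 ephrin-As rose and 0 fell. The largest of these were Epha6 (1.14 ± 0.30), Efna4 (1.08 ± 0.23), Efna3 (1.003 ± 0.28) and Epha3 (0.91 ± 0.10) (adjusted p from 8.99e-16 to 0.00454 in the authors' deposited table). In the knockout 4 of 9 EphA receptors fell and 0 rose: Epha10 (-0.73), Epha4 (-0.54), Epha3 (-0.42) and Epha8 (-0.39) (adjusted p from 3.45e-05 to 0.00821 in the authors' deposited table). Epha4, a receptor that also binds ephrin-Bs, was called in the knockout and at 14 days, with a rise of 0.41 ± 0.12 at 14 days (adjusted p = 0.00590 in the authors' deposited table). Epha3 was called in both of these comparisons too. Whether the EphA and EphB branches differ was not tested.

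Genes that carry the signal on from EphB receptors had no call at 48 h. Of 28 forward signalling effectors tested, 0 rose and 0 fell (1 higher and 1 lower with unadjusted p below 0.05), and of 10 reverse signalling effectors 0 rose and 0 fell (0 higher and 3 lower unadjusted). At 14 days 10 of 29 forward effectors rose and 2 fell, with a median of 0.07. Src, a kinase recruited by Eph receptors, rose by 0.84 ± 0.15, Pak1, a kinase that acts on actin below Rac and Cdc42, by 0.92 ± 0.18, and Limk1, which stabilises actin, by 0.58 ± 0.14 (adjusted p from 1.88e-06 to 0.000897 in the authors' deposited table). Itsn2, a scaffold and Cdc42 activator, went the other way at -0.49 ± 0.12 (adjusted p = 0.000744 in the authors' deposited table).

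Reverse signalling effectors rose in 4 cases and fell in 1 of 10 at 14 days, with a median of 0.02. Sdcbp and Grip1, PDZ proteins that bind the tail of ephrin-Bs, had 0.61 ± 0.14 and 0.52 ± 0.14, and Nck2, an adaptor for the phosphorylated tail, 0.54 ± 0.18 (adjusted p from 0.000425 to 0.0202 in the authors' deposited table). Rgs3, a regulator of G protein signalling that binds ephrin-B, fell at -0.57 ± 0.20 (adjusted p = 0.0256 in the authors' deposited table). In the knockout 3 of 28 forward effectors fell and 0 rose. They were Arhgef15, an exchange factor bound by EphB2 and also expressed in vessels (-0.65), Kalrn, a Rac activator (-0.34), and Synj1, which acts in endocytosis (-0.26) (adjusted p from 3.09e-05 to 0.0188 in the authors' deposited table). Tjp1 (-0.31) was the 1 of 10 reverse effectors that fell (adjusted p = 0.00198 in the authors' deposited table).

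Of 8 genes for shedding, dephosphorylation and turnover of these receptors, 0 rose and 0 fell at 48 h (0 higher and 0 lower with unadjusted p below 0.05). At 14 days 2 of 8 rose and 0 fell. The larger rise was that of Ptpro, a receptor phosphatase that acts on Eph receptors, at 1.80 ± 0.18, and the other that of the protease gene Mmp9, at 0.66 ± 0.25 (adjusted p = 4.27e-21 and 0.0431 in the authors' deposited table). In the knockout 0 of 7 rose and 0 fell (0 higher and 1 lower unadjusted). Of 6 membrane partners, Alcam rose at both times, with 1.67 ± 0.26 at 48 h and 1.57 ± 0.24 at 14 days, and Sdc2, a proteoglycan phosphorylated by EphB2, at 14 days by 0.26 ± 0.092 (adjusted p from 3.3e-09 to 0.0287 in the authors' deposited table). In the knockout 0 of 6 partners rose and 0 fell (0 higher and 1 lower unadjusted).

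Genes known from the midline decision include regulators of Ephb1, but neither the sorted cells nor whole retina isolate ganglion cells. Of 18 tested at 48 h, when Ephb1 was lower, 0 rose and 0 fell (1 higher and 1 lower with unadjusted p below 0.05). Zic2, the transcription factor that turns on Ephb1 in uncrossed ganglion cells, had 0.11 ± 0.17 at a mean count of 1538, and Isl2, a repressor of that programme, -0.67 ± 0.26 at a mean count of 85.8 (adjusted p = 0.852 and 0.162 in the authors' deposited table). The values of Zic2 at 14 days and in the knockout were 0.16 ± 0.30 and -0.11 (adjusted p = 0.762 and 0.423 in the authors' deposited table). Zic2 and Isl2 were chosen after their values were seen. At 14 days 6 of 18 midline genes rose and 0 fell, led by Sox4 (1.37 ± 0.18), Lhx9 (1.71 ± 0.28), Plxna1 (0.99 ± 0.21) and Sox11 (1.18 ± 0.25) (adjusted p from 1.47e-11 to 8.8e-05 in the authors' deposited table). In the knockout 2 of 20 fell and 0 rose, Sox4 (-0.57) and the semaphorin receptor gene Plxna1 (-0.22) (adjusted p = 1.68e-09 and 0.0163 in the authors' deposited table).

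**Figure D4:**
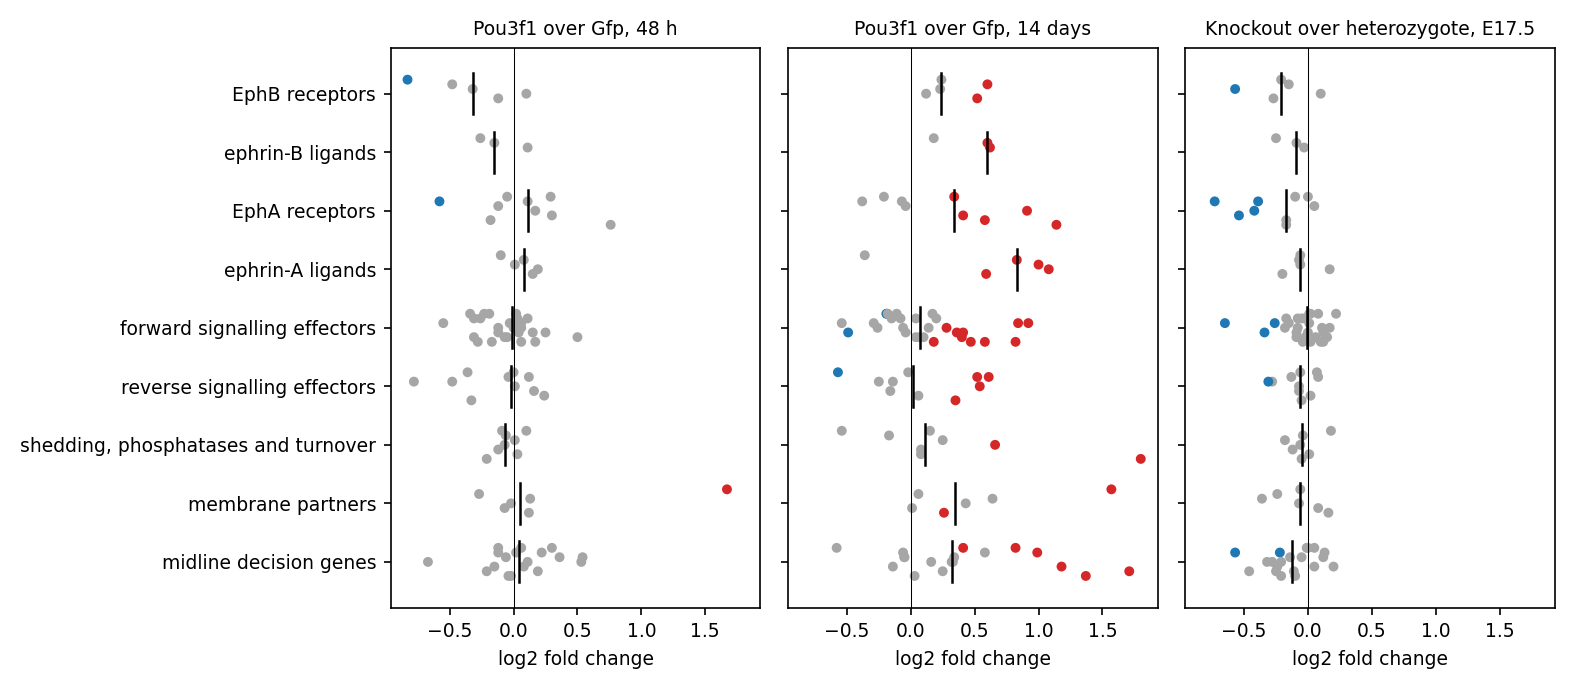
Points show the log2 fold change (horizontal axis) of every tested gene in 9 lists, in the 3 comparisons, red where it rose, blue where it fell and grey where it did not pass, and black bars mark list medians. At 48 h few points are coloured, at 14 days red points prevail among the Eph and ephrin lists, and in the knockout the called receptors are blue.

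The genes most like each called member were sought by the Euclidean distance between their 3 log2 fold changes (48 h, 14 days and knockout) among 14002 genes with an adjusted p in all tables. Ephb1 stood nearest to Coq8a (distance 0.0252), Rreb1 (0.143) and Sema5a (0.147), so that after Coq8a its neighbours were farther away than those of the other members. Ephb2 was closest to Lrp4 (0.0265), Mapt (0.0501) and Zfp423 (0.0535), and Ephb3 to Chd5 (0.0307), Arrb1 (0.0455) and Pcdhga3 (0.0565). For Ephb6 the nearest were Soga3 (0.00974), Foxn3 (0.0343) and Nhsl1 (0.0345). For Efnb2 they were Ano6 (0.0186), Ttyh3 (0.0513) and Usp22 (0.0557), and for Efnb3 Mllt11 (0.0424), Stmn2 (0.0470) and Prmt2 (0.0482). The distance covers 3 comparisons only and uses no errors.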

How the data were processed

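RNA-seq of 19 libraries was deposited as 3 tables of the authors' comparisons, without values per library. Salmon, DESeq2, MACS2 and build mm10 are named in the submitters' processing notes, without versions or roles. Per the file headers, the overexpression tables hold the authors' mean normalized count (a signal averaged over libraries), log2 fold change, its SE, a Wald score, p-value and adjusted p. The E17.5 table holds only the deposited log2 fold change, p-value and adjusted p. Checked on the values, the Wald score is the fold change over its SE (largest difference 4.45e-07), and each adjusted p is Benjamini-Hochberg over 14714, 17789 and 14821 genes (largest difference 5.6e-06). The bounded SE (at most 0.297) shows fold changes shrunken toward 0. For E17.5 the SE was taken from the p-value as a two-sided normal p, an assumption that holds in the other tables.

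A positive value was read as higher in Pou3f1 cells or knockout, from the direction of Pou3f1. The E17.5 table's name gives the groups in the order heterozygote, knockout, so its direction rests on Pou3f1 being lower in the knockout. The E17.5 table's name gives another embryonic day and the protocol gives postnatal day 14 for the late cells, where the sample labels' E17.5 and 14 days are used. A call means an adjusted p of the authors below 0.05, and the text adds 95% intervals and the z test between times. The z test was run on simulated normal fold changes with the listed SE and no shrinkage. That run does not check it on shrunken fold changes. Lengths came from GENCODE release 21 (99.7% and 99.6% of listed genes matched). Members and lists were chosen with earlier results of these data known. Named are all members, Pou3f1, up to 4 called genes per list by adjusted p, and the 3 genes nearest to each called member, predicted names left out. Other settings tried were centring on the median (for E17.5 chosen after seeing the data), a stricter adjusted p of 0.01, a 2-fold limit, p-values adjusted over all genes, a mean count of at least 10 and mean transcript length. Protein sequences were not used here. Versions were matplotlib 3.10.9, scipy 1.17.1, numpy 2.4.6, pandas 2.3.3 and Python 3.11.15.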

Additional observations from a re-analysis of the deposited data

Results flagged for a closer look

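For 3 members the effect of added Pou3f1 differed between 48 h and 14 days by a z test of the difference, adjusted over all genes tested at both times. The log2 fold change was higher at 14 days by 1.08 for Ephb2, by 1.07 for Ephb1 and by 0.75 for Efnb2. Of all 14580 genes so tested, 4.48% passed as higher and 1.66% as lower at 14 days.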

How the results depend on the processing

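Of 136 values of single members under an alternative, 128 kept their direction and side of the threshold, 8 kept their direction but no longer passed, and 0 reversed. With a 2-fold limit, 0 members were called in the 48 h table, 0 in the 14 day table and 0 in the knockout. Over all genes, 106, 496 and 57 were called with that limit. At an adjusted p under 0.01, Efnb2 was not called at 14 days (adjusted p = 0.0127) or between times (adjusted p = 0.0289), while 3 and 2 members were still called. Over all genes, 2066 were called at 14 days and 441 between times at that threshold. Adjustment over all genes, centring on the median and, where a mean count is listed, a minimum of 10 left the same members called. With the mean transcript length, the median level per kilobase of the members was 386 instead of 239 at 48 h and 298 instead of 155 at 14 days. No paired analysis was possible because the tables carry no values per library, and for the same reason leaving out each replicate was not run. The lack of values per library, with 2 libraries a group at E17.5, limits what can be checked.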
